A study of Mus musculus with 2 samples.

Results

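Granulocyte-monocyte myeloid cells were taken from single-cell RNA sequencing of CD31+CD44+ cells of the mouse embryo at embryonic day 10. A cell was included when Mpo reached 300 CPM (its UMIs divided by the total of that cell, times 1000000) and Fcgr3 reached 50 CPM, while the 3 C1q genes together stayed below 500 CPM and Gp9, Gp1bb, Ppbp and Treml1 together stayed below 500 CPM. This gave 132 of the 2139 deposited cells, or 6.17% of the cells and 9.01% of all UMIs. The members were therefore chosen by the levels of Mpo, Fcgr3, C1q and platelet genes in the same cells, so levels set against other cells are descriptions and carry no test.

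The sorted cells came from the caudal region of cKO embryos (Vec-Cre;Nupr1 fl/fl) and of littermate controls (Nupr1 fl/fl and Nupr1 fl/+), all kept on a C57BL/6 background. Cre is driven by the Cdh5 promoter, so deletion starts in endothelium and is inherited by the blood cells that endothelium forms. Cells of each genotype carried their own hashtag oligo and both genotypes were loaded as 1 pool in each of 2 replicates. The hashtag names the genotype and not the embryo, so the number of embryos behind each genotype and replicate is not known. Control cells of the 2 control genotypes cannot be told apart. The study asked how loss of Nupr1, a stress-induced nuclear protein, affects blood formation from endothelium, and here the comparison was made within the myeloid cells.

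Granulocytes and monocytes are phagocytes that arise from a shared progenitor. In the mid-gestation embryo the first of these cells come from erythro-myeloid progenitors that bud from yolk sac endothelium, before definitive stem cells take over. Early in granulocyte maturation the cell fills its primary granules with myeloperoxidase (Mpo) and serine proteases such as proteinase 3 (Prtn3), neutrophil elastase (Elane) and cathepsin G (Ctsg). Later it makes secondary granule proteins and the calcium-binding pair S100a8 and S100a9, which form the calprotectin dimer. Fcgr3 encodes a low-affinity receptor for IgG that monocytes, granulocytes, mast cells and macrophages share.

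Sequences before the start of 5 genes are shown, 3 of primary granule genes and those of the S100a8 and S100a9 pair, whose spread is described later. They are read 5′ to 3′ on the strand of the gene, from RefSeq on GRCm38.p6, with bases after the earlier of the RefSeq and GENCODE M21 starts left out. Capitals mark AGGAAGT or its reverse complement ACTTCCT, the core letters bound by the myeloid factor PU.1 (Spi1), searched on both strands in the 250 bases before the RefSeq start.
Mpo, chr11:87793534-87793580, plus strand: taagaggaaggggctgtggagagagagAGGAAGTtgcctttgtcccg
Elane, chr10:79886062-79886246, plus strand: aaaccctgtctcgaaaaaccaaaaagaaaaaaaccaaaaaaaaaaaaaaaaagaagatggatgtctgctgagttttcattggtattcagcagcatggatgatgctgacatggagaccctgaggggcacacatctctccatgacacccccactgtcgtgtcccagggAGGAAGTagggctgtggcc
Ctsg, chr14:56102575-56102824, minus strand: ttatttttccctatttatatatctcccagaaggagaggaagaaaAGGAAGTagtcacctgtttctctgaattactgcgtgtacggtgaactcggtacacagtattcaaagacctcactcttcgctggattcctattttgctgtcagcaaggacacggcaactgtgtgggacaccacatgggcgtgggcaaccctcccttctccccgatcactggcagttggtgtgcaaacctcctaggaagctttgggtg
S100a8, chr3:90668821-90668977, plus strand: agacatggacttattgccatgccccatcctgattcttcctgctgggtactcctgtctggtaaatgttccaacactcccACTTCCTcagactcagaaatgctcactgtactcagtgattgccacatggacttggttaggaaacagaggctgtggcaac
S100a9, chr3:90695722-90695971, minus strand: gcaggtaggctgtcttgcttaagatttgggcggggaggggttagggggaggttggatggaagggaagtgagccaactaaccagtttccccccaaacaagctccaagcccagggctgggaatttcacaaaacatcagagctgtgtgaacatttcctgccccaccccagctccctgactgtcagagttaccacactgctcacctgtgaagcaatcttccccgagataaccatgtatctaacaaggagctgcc
The letters stood 223 bases before the RefSeq start of Mpo, 84 before that of Elane, 206 before that of Ctsg and 172 before that of S100a8, and were not in the S100a9 window. Of the 9 genes searched, 5 held them: Prtn3 did so as well, 94 bases before its start, and Fcgr3, Ms4a3 and Plac8 did not. Over all 32817 RefSeq promoter windows of this length, 7.69% held them. The motif was picked after the sequences had been seen, and a match is a description of letters and not of a bound site. S100a8 and S100a9 are neighbours on chromosome 3, with 22596 bases between the GENCODE gene models (90668978 to 90670035 and 90692632 to 90695721).

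The 132 cells fell into 22 of 334 control cells of replicate 1, 52 of 748 control cells of replicate 2, 7 of 344 cKO cells of replicate 1 and 51 of 713 cKO cells of replicate 2. Their median depth was 70960, 92565, 92013 and 88887 UMIs per cell in that order, against 36818 to 60015 in the other cells of the same groups. Summed, they gave 1511920, 4794396, 641652 and 4221484 UMIs, so that the cKO sum of replicate 1 was the shallowest and rested on 7 cells. No cell barcode was shared by the 2 libraries, 1 member lay outside the limits the study states for genes, UMIs and mitochondrial reads, and Scrublet called 6 cells of the series and 0 members as doublets. The sex-linked genes differed between groups. Xist without any chromosome Y gene was found in 21 of 22 and 52 of 52 control members, in 1 of 7 cKO members of replicate 1 (the other 6 had chromosome Y transcripts) and in 38 of 51 cKO members of replicate 2 (the other 13 had neither). Embryo sex and genotype therefore cannot be told apart in replicate 1. Sex-linked transcripts differed by genotype in replicate 2 as well. There, 98.7% of all control cells and 57.6% of all cKO cells had Xist without a chromosome Y gene. The part of embryo sex in the genotype comparisons below was not tested.

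At the edge of the rule, the lowest Mpo inside was 308 CPM and the highest just outside was 294 CPM. The lowest Fcgr3 inside was 55.2 CPM and the highest outside was 49.2 CPM. C1q reached 443 CPM inside and began at 545 CPM outside. Of 169 cells with enough Mpo, 30 lacked Fcgr3, 7 were dropped for C1q and 0 for platelet genes. Mpo values were spread across the limit, with 15 members below 400 CPM and 14 cells from 200 to 300 CPM left out.

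The label was first set against its markers. Of the 6 markers named for these cells, Mpo, Prtn3, Plac8, S100a8 and Ms4a3 were higher than in all other cells by the rule that each of the 4 member sums is at least 2 times each of the 4 sums of other cells, and Fcgr3 was not. Across the 5842 genes with a mean of 20 CPM or more in members or in others, 1.47% were higher and 6.30% were lower by that rule. Nothing is read from this beyond description, since Mpo and Fcgr3 chose the cells. A gene that reaches 20 CPM only in members could not be lower by that rule, though some, such as Prg2, were not higher either. Among genes called higher here and below, this applies at least to S100a8, S100a9, Ms4a3, Elane, Nkg7, Serpinb1a, Hp, Cebpe, Hdc and Cpa3. It also applies to Cebpa, Csf2rb, Csf3r and Fcgr2b. Mpo measured 2517 CPM in control replicate 1, 1771 CPM in control replicate 2, 1186 CPM in cKO replicate 1 and 2140 CPM in cKO replicate 2, against 22.3 to 62.6 CPM in the other cells. Prtn3 measured 2117, 2538, 982 and 2331 CPM in members in the same order, against 57.0 to 159 CPM. All 4 member sums stood above all sums of other cells for both genes, and the cKO sum of replicate 1 was the lowest for each. Fcgr3 measured 479, 347, 185 and 659 CPM in members and 45.0, 191, 60.3 and 197 CPM in other cells, so the groups overlapped. It was not particular to these cells, since members held 23.1% of all Fcgr3 UMIs but 81.7% of those of Mpo, and cells with 500 CPM or more of C1q averaged 341 CPM of Fcgr3.

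Primary granule genes were described with Mpo among them, although Mpo chose the cells. Elane, Nkg7 and Serpinb1a were among those that reached 20 CPM only in members. Of 10 genes in the list, 9 were measured and 8 were higher, namely Mpo, Prtn3, Elane, Srgn, Nkg7, Serpinb1a, Cst7 and Ap3s1, with a median log2 ratio of 4.15 against -0.03 over all genes measured. Elane measured 75.4 CPM in control replicate 1, 315 CPM in control replicate 2, 6.23 CPM in cKO replicate 1 and 189 CPM in cKO replicate 2, against 0.0742 to 2.70 CPM in other cells. Few cells carried much of it, since 62 of 132 cells had an Elane UMI and the top cell held 20.7% of the UMIs. Srgn, the proteoglycan core that packs granule enzymes, was found in all 132 cells, at 795 to 2583 CPM in members against 83.8 to 220 CPM in others. Serpinb1a, an inhibitor of the granule proteases, averaged 212 ± 46.4 CPM in members (SD, n = 4 sums) against 16.1 ± 7.99 CPM. Ctsg was found in 10 members only, yet these held 98.8% of its UMIs in the series. Gfi1, a repressor needed for granulocyte maturation, was found in 26 members, and at a mean of 9.66 CPM it was too low to be compared.

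Secondary and tertiary granule genes were mostly absent or near 0. Of 13, 9 were below 20 CPM in both members and others, among them lactoferrin (Ltf), Lcn2, Mmp8, Mmp9 and Camp, and 4 had no UMI in any member. The 2 that were higher were haptoglobin (Hp), at 368 to 573 CPM against 4.94 to 25.2 CPM, and Cebpe, the factor that drives the secondary granule stage, at 31.2 to 132 CPM against 0.393 to 1.01 CPM. Camp, the cathelicidin gene, had 235 UMIs in members, of which 227 stood in 1 cell. Cyba and Cybb, subunits of the phagocyte oxidase, were neither higher nor lower, and none of the 6 oxidase genes was higher or lower by the rule.

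Monocyte genes were not above the rest of the series. Of 14, 11 were measured, 0 were higher and 2 (Cx3cr1 and Fn1) were lower, with a median log2 ratio of -1.84. Cx3cr1, the fractalkine receptor, measured 3.97, 47.3, 34.3 and 41.7 CPM in the 4 member sums against 120 to 234 CPM in other cells. Csf1r, the receptor of the macrophage growth factor, was at 6.23 to 37.7 CPM in members and at 51.1 to 117 CPM in others. The classical monocyte gene Ly6c2 was near 0, with 25 UMIs in 9 cells, while Ccr2 was found in 29 cells. Irf8, which directs progenitors towards monocytes, was found in 61 of 132 members at a median of 0 CPM and a highest value of 478 CPM. The other cells include 662 with 500 CPM or more of C1q, in which the monocyte genes summed to 2943 CPM, against 222 to 592 CPM in members. In cells with at least 50 CPM of both Ptprc and Myb they summed to 401 CPM, within the range of the members.

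Among myeloid transcription factors, Cebpa and Cebpe were higher, Id2 was lower, and 11 of the 14 measured were neither. Cebpa and Cebpe reached 20 CPM only in members, so neither could be lower. Cebpa, which commits progenitors to the granulocyte and monocyte fates, measured 34.4 to 46.4 CPM in members against 2.44 to 10.5 CPM. Spi1, which encodes PU.1, was found in all 132 cells at 282 to 413 CPM, against 143 to 302 CPM in other cells, so its groups overlapped. Myb measured 94.9 to 164 CPM and Runx1 146 to 206 CPM. Id2, an inhibitor of helix-loop-helix factors, was at 3.31 to 31.0 CPM against 63.9 to 91.9 CPM.

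Of the growth factor and cytokine receptors, 7 were measured and 2 were higher, beside 1.47% higher and 6.30% lower over all genes measured. The 2 reached 20 CPM only in members, so neither could be lower. Csf2rb, the shared beta chain for GM-CSF, IL-3 and IL-5, measured 49.2 to 114 CPM against 6.49 to 16.4 CPM. Csf3r, the G-CSF receptor, measured 25.8 to 31.2 CPM against 6.49 to 12.6 CPM. Kit, the stem cell factor receptor, averaged 39.7 ± 18.6 CPM in members and 38.4 ± 28.2 CPM in others, and was found in 88 members. Among Fc receptors and adaptors, Fcgr2b was higher at 10.9 to 39.6 CPM against 0.594 to 2.26 CPM, whereas Fcer1g and Tyrobp, the signalling adaptors, were found in all 132 cells without being higher. In the adhesion list Spn (CD43) and Ly6e were higher and Pecam1 and Cd93 lower. Pecam1, which encodes the sort marker CD31, still had a UMI in 99 of 132 cells, and Cd44, the other sort marker, in 125.

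Markers of other cell types were set beside these results, and their part in them was not tested. Endothelial markers were lower for 11 of 12, with a summed level of 128 to 230 CPM in members against 1251 to 3093 CPM in others. Cdh5 was at 13.2, 1.04, 7.79 and 0.711 CPM, and 1 member, in control replicate 1, reached 100 CPM. Macrophage markers outside the rule were lower for 6 of the 8 measured of 12, with a summed level of 389 to 517 CPM against 1119 to 3077 CPM, and 1 of them had no UMI in members. Megakaryocyte markers summed to 92.6 to 142 CPM against 235 to 6095 CPM. Pf4, the platelet chemokine, was at 5.29 and 7.79 CPM in members of replicate 1 and at 47.6 and 46.4 CPM in members of replicate 2, where the cells with 500 CPM or more of platelet genes numbered 118 control and 88 cKO cells, against 5 and 0 in replicate 1. Erythroid markers summed to 41.7 to 115 CPM, lymphoid markers to 0.661 to 9.24 CPM and dendritic markers to 3.97 to 10.9 CPM.

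Of 10 mast cell, basophil and eosinophil genes, 5 were measured. Cpa3, the mast cell carboxypeptidase, and Hdc, which makes histamine, were higher, while Epx, Prg2 and Kit were not. Hdc measured 247, 128, 103 and 235 CPM in members against 0.934 to 4.59 CPM, and Cpa3 measured 129, 46.7, 26.5 and 166 CPM against 1.48 to 5.57 CPM. The defining mast cell protease Cma1 and the basophil protease Mcpt8 were too low to be compared. The 20 genes with the largest ratio of members to others were S100a8, S100a9, Prg2, BC100530, Prg3, Gm5483, Ms4a3, Elane, Cebpe, Hdc, Mpo, Stfa1, Hp, Perp, Cpa3, Nkg7, Prtn3, Serpinb1a, Srgn and Spns3. Stfa1, Gm5483 and BC100530 belong to the near-identical stefin A cluster, so reads could be split among them and their separate counts are uncertain.

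**Figure D1:**
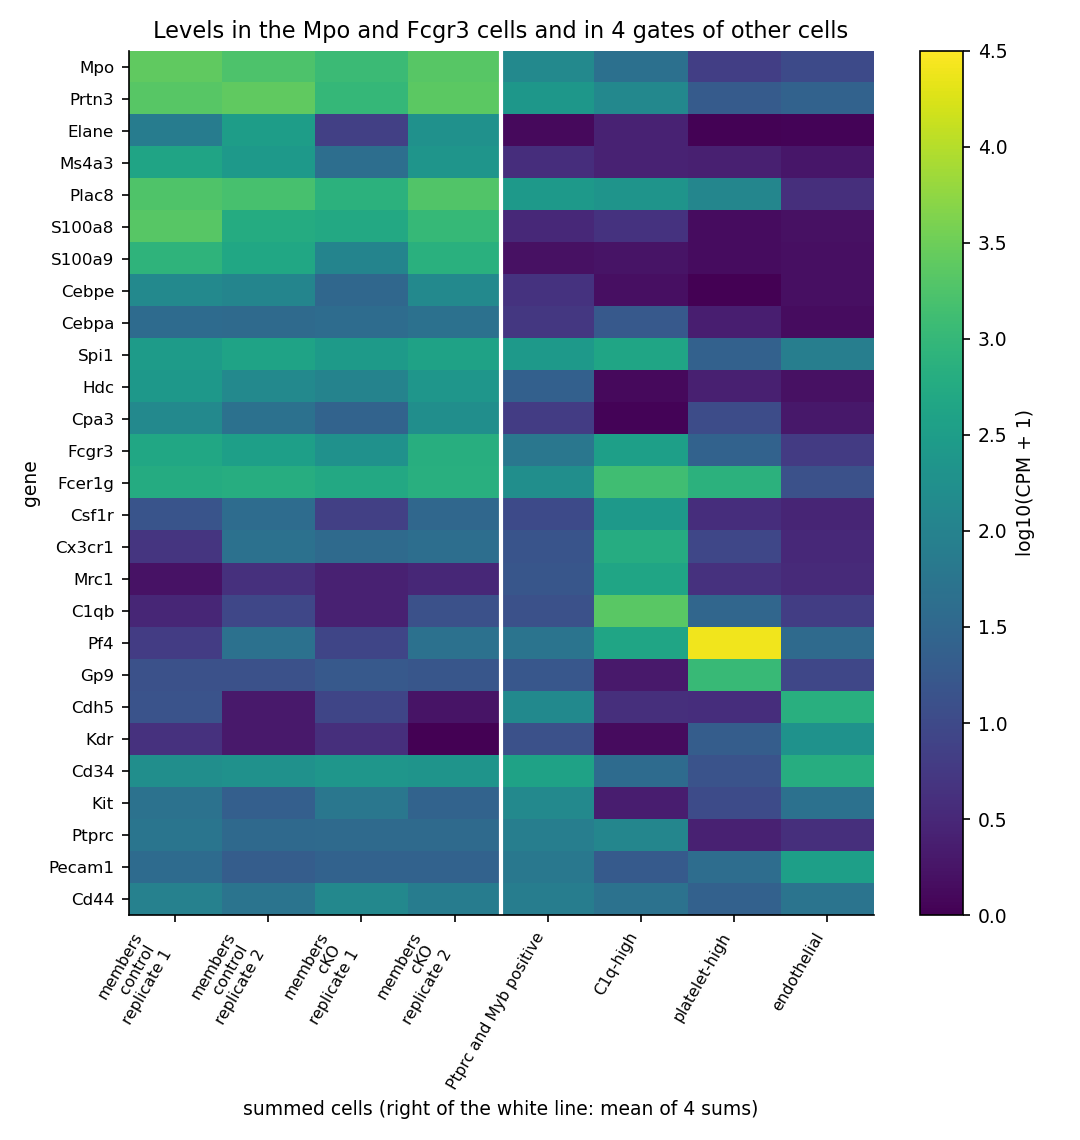
Heat map of log10(CPM + 1) for 27 genes (rows) in the 4 sums of the Mpo and Fcgr3 cells (left of the white line) and, as means of 4 sums, in 4 gates of other cells: cells with at least 50 CPM of both Ptprc and Myb, C1q-high, platelet-high and endothelial (Cdh5 of 100 CPM or more, Ptprc below 50). Mpo averaged 1904 CPM in members and 128 CPM in the Ptprc and Myb positive cells, while Fcer1g was higher in the C1q-high cells. The 282 cells in none of these gates are not shown.

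Of the S100 list, S100a8, S100a9 and Anxa1, a calcium-dependent lipid-binding protein, were higher among 6 measured. Stem and progenitor genes were higher for Spn and lower for Mecom, Procr and Hoxa9 of 13 measured. Cytokines and chemokines were lower for Ccl2 of 7, chemokine receptors for Cx3cr1 of 3, immediate early genes for Atf3 of 12 and stress response genes for Ddit4 of 3, while 0 of 8 heat shock genes were higher or lower.

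Cell cycle genes were neither higher nor lower by the rule: 0 of 16 S phase genes and 0 of 16 G2 and M phase genes were higher or lower. The summed S phase level per cell had a median of 2042, 2017, 2633 and 2160 CPM in the 4 groups of members and of 1266 to 1431 CPM in other cells, and 127 of 132 members had an Mki67 UMI. The deeper sequencing of members, given above, moves with these per-cell values and its part was not tested.

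The spread of S100a8 and S100a9 within the members was wide. Every member had Mpo because the rule required 300 CPM of it. Its 10th, 50th and 90th percentiles were 386, 1582 and 4272 CPM. For S100a8 the median was 0 CPM in each of the 4 groups and over all 132 cells, the 90th percentile was 285 CPM and the highest cell reached 24756 CPM. For S100a9 the median was likewise 0 CPM, the 90th percentile was 595 CPM and the highest cell reached 15029 CPM. The standard deviation over cells was 3.63 times the mean for S100a8 and 3.68 times for S100a9, against 0.775 times for Mpo, 1.08 times for Prtn3 and 1.63 times for Fcgr3.

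S100a8 had at least 1 UMI in 26 of 132 members (19.7%, exact binomial 95% interval 13.3 to 27.5) and S100a9 in 27 (20.5%, 13.9 to 28.3). Both were found in 17 cells, S100a8 alone in 9, S100a9 alone in 10 and neither in 96. Among endothelial cells, which should lack both, 2.24% had an S100a8 UMI at a median depth of 31700 UMIs, against 86523 in members. With every cell thinned to 6000 UMIs, S100a8 was found in 12.9% of members and 0.128% of endothelial cells (20 endothelial cells were shallower and left out), and S100a9 in 12.9% and 0.384%. The intervals cover counting error only. At 1000 CPM or more, 11 members carried S100a8 and 12 carried S100a9, with 11 carrying both. No other cell reached this level, the highest being 485 CPM for S100a8 and 81.4 CPM for S100a9. Members held 98.8% of all S100a8 UMIs and 98.9% of all S100a9 UMIs in the series. Among the members with S100a8, 10 had 10 UMIs or fewer and 16 had more.

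**Figure D2:**
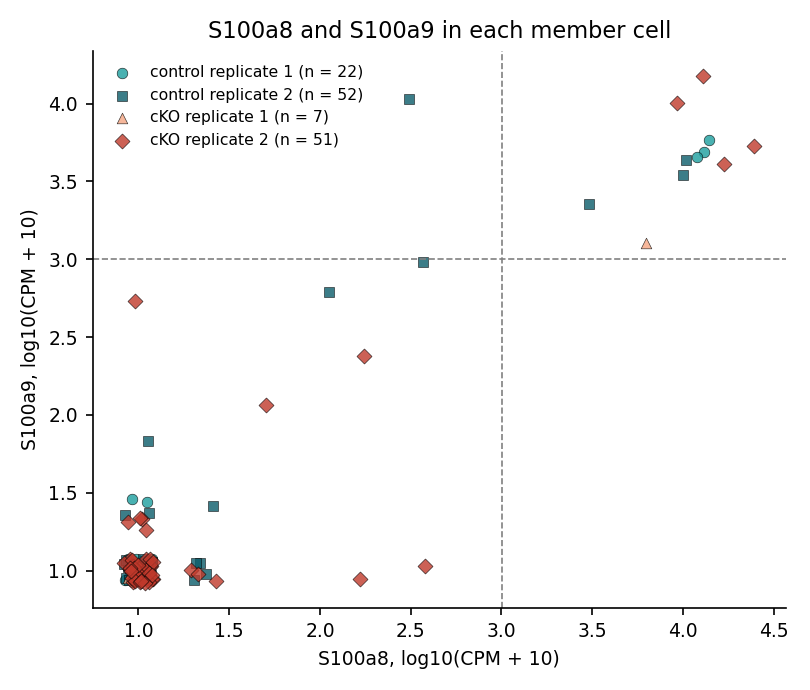
S100a9 against S100a8 in each of the 132 cells, both as log10(CPM + 10), with colour and shape for genotype and replicate and dashed lines at 1000 CPM; cells at 0 are jittered around 1. Of the cells, 11 lie in the upper right, 1 lies above the line for S100a9 only, and 96 sit at 0 for both.

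The 12 cells with S100a8 or S100a9 at 1000 CPM or more came from every group, 3 from control replicate 1, 4 from control replicate 2, 1 from cKO replicate 1 and 4 from cKO replicate 2. In 11 of them the ratio of S100a9 to S100a8 UMIs ran from 0.204 to 1.17, with the 3 cells of control replicate 1 between 0.373 and 0.420. The last, from control replicate 2, had 938 S100a9 UMIs and 26 S100a8 UMIs. The highest S100a8 cell, from cKO replicate 2, had 1611 S100a8 and 345 S100a9 UMIs, and the highest S100a9 cell, from the same group, had 1393 S100a8 and 1633 S100a9 UMIs. Because single cells carried so much, the sums moved with them: 1 cell gave all 339 S100a8 UMIs of cKO replicate 1, and the top cell gave 39.4%, 43.0% and 37.5% of the UMIs in the other groups.

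These 12 cells differed from the other 120 members in further granule genes, which is description, since the 12 were picked on these counts. Elane averaged 1159 CPM in the 12 and 86.2 CPM in the 120, and was found in 12 of 12. Ms4a3, a membrane protein of granulocyte-monocyte progenitors, averaged 1395 against 114 CPM, and Prtn3 averaged 6111 against 1736 CPM. Cebpe was found in 12 of 12 at 407 CPM, against 37 of 120 at 74.8 CPM, and Gfi1 in 8 of 12 at 73.9 CPM, against 18 of 120 at 2.70 CPM. Not every primary granule gene went this way: the mean of Cst7, an inhibitor of cathepsins, was lower in the 12 (25.7 against 53.5 CPM). Of secondary granule genes, Hp averaged 1498 against 388 CPM and ficolin B (Fcnb) 186 against 1.38 CPM. The Fcnb mean rested on 4 cells at 100 CPM or more, all from cKO replicate 2, a group with 182 of its 207 UMIs, and its median in the 12 was 29.7 CPM. The means of the stefin A genes went the same way, but unevenly over cells. Gm5483 was at 100 CPM or more in 9 of the 12 cells and 1 of the rest. Stfa1 reached this level in 31 members, of which 8 were among the 12, and had 0 UMIs in control replicate 1. Stfa2l1 and Stfa3 reached it in 4 cells each, all among the 12 and all cKO. Cpa3 was at 0 in all 12 and averaged 126 CPM in the 120, and Gata2, which keeps progenitors and mast cells, averaged 1.51 against 78.9 CPM. Not all 12 were alike: the single cell of cKO replicate 1 had 18.4 CPM of Elane and 36.7 CPM of Ms4a3, and 2 cells of cKO replicate 2 had no Ms4a3 and 830 and 878 CPM of Mpo.

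Over the cells of each group, the genes whose levels followed S100a8 most closely were Gm5483, with a mean Spearman rho of 0.775 over the 4 groups, S100a9 with 0.758, Cebpe with 0.603, Dstn with 0.534 and Pgd with 0.526, followed by Anxa1, Elane, Cdk2ap2, Asap1 and Arhgdib. The lowest of 2652 genes were ribosomal protein genes, Rpl15 at -0.471, Rpl19, Rpl18, Rps15a and Rpl23. Cells of a group share a library and differ in depth, and the rho of cKO replicate 1 rests on 1 of 7 cells. For Mpo the closest genes were Calr at 0.784, Ap3s1 at 0.764, Gsr at 0.734, Pdia6 at 0.718 and Srgn at 0.716. Calr and Pdia6 encode folding factors of the endoplasmic reticulum, and Ap3s1 and Srgn are in the primary granule list. Some genes followed both: Elane had a mean rho of 0.642 with Mpo and 0.485 with S100a8, and Cebpe 0.605 and 0.603.

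Fcgr3 divided the members along another line. It ranged from 55.2 to 5098 CPM with a median of 206 CPM, and 21 cells had 1000 CPM or more, 5 in control replicate 1, 4 in control replicate 2, 0 in cKO replicate 1 and 12 in cKO replicate 2. This level was chosen after the values were seen. Only 1 of the 21 was also among the 12 S100 cells, which left sets of 12, 20 and 100 cells with median depths of 84513, 57837 and 89507 UMIs. Hdc had a median of 706 CPM in the 20, against 92.0 CPM in the S100 cells and 11.96 CPM in the remaining 100. Gata2 had a median of 202 CPM in the 20, against 0 and 16.2 CPM. Ifitm1, an interferon-induced membrane protein, had medians of 3955, 4.99 and 20.8 CPM, and Csf2rb of 206, 73.2 and 31.4 CPM. Il4, a cytokine of basophils and mast cells, was found in 15 of the 20 cells, 0 of the 12 and 9 of the 100, and Il6 in 14, 0 and 9. Prtn3 had medians of 442, 6404 and 1363 CPM, so it was lowest where Fcgr3 was highest, while Mpo medians were 2614, 4049 and 1171 CPM. Irf8 was at 0 in all 20 and was found in 57 of the remaining 100. Other mast cell and basophil genes were mixed when all 21 cells were set against the other 111. Kit averaged 27.2 against 30.1 CPM, Mcpt8 and Prss34 were at 0 in the 21, and Cma1 averaged 1.72 CPM there. Cpa3 averaged 239 against 90.6 CPM but reached 100 CPM in 9 of the 21 only. Ms4a2 averaged 15.7 against 0.916 CPM, and Fcer1a 11.6 against 0.109 CPM.

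**Figure D3:**
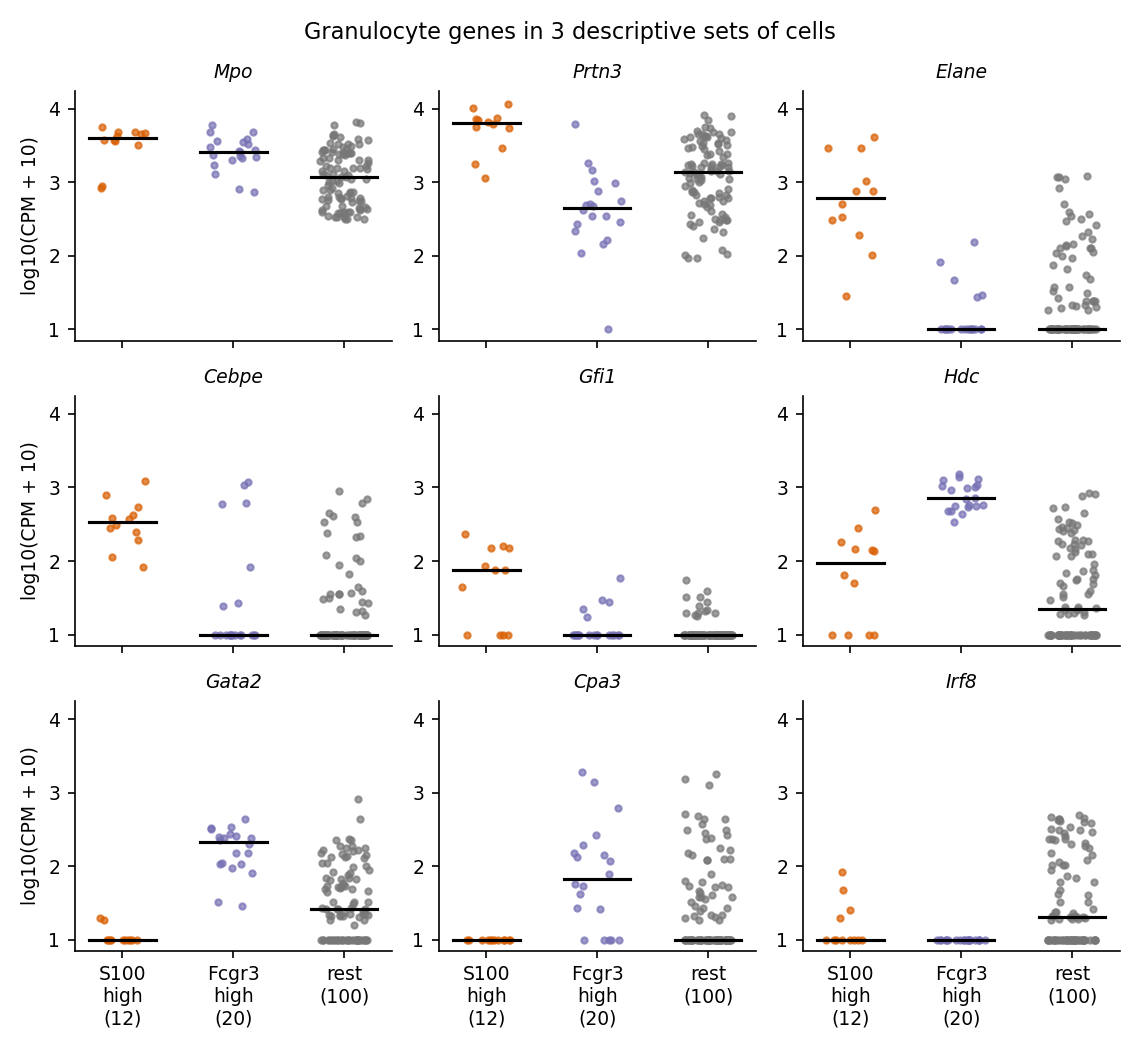
Levels of 9 genes in each member, as log10(CPM + 10), for the 12 cells with S100a8 or S100a9 at 1000 CPM or more, the 20 other cells with Fcgr3 at 1000 CPM or more and the remaining 100; points are cells and bars are medians. Elane and Cebpe have their highest medians in the S100 cells and Hdc and Gata2 in the Fcgr3 cells, where the Hdc median is 706 CPM.

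Eosinophil granule genes were carried by few members. Prg2, the major basic protein, had 1794 UMIs, of which 94.1% stood in 3 cells, and the highest reached 15211 CPM in control replicate 1. The 3 cells with 100 CPM or more of eosinophil peroxidase (Epx) were all among the 21 cells high for Fcgr3. The eosinophil ribonucleases Ear2 and Ear6, near-identical paralogs whose counts are uncertain, had 107 and 75 UMIs, each in 3 cells. No class was named from these genes, since most of them were noticed in the data.

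**Figure D4:**
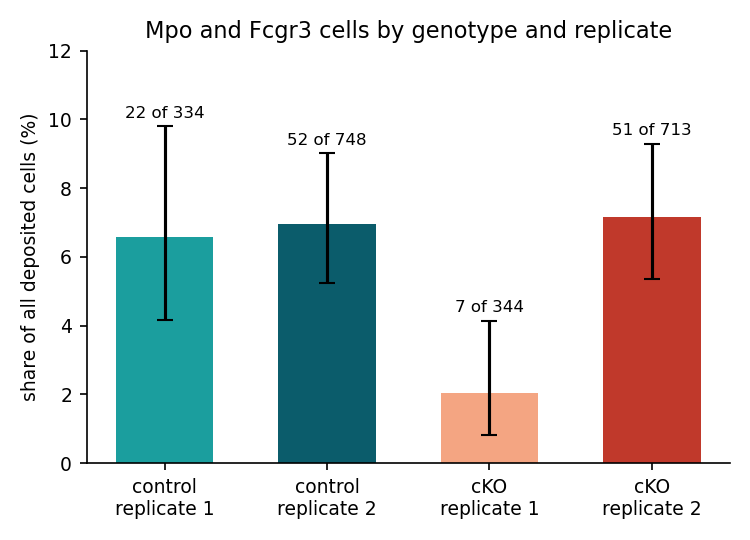
Share of the Mpo and Fcgr3 cells among all deposited cells of each genotype and replicate (%), as bars from 0 with exact binomial 95% intervals and the counts above them. The shares lie between 6.59% and 7.15% in 3 groups and at 2.03% in cKO replicate 1.

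Genotype was not used by the rule, and the share of these cells was compared between cKO and control embryos. It was 6.59% (exact binomial 95% interval 4.17 to 9.80) and 6.95% (5.24 to 9.02) in the control replicates, and 2.03% (0.822 to 4.15) and 7.15% (5.37 to 9.30) in the cKO replicates. The means were 6.77% ± 0.258 in control and 4.59% ± 3.62 in cKO (SD, n = 2), and the 2-sided exact permutation p was 1, where 0.333 is the smallest that 2 against 2 allows. The replicates differed: cKO was lower by 4.55 percentage points in replicate 1 and higher by 0.201 points in replicate 2, and without cKO replicate 1 the difference of means turned from -2.18 to 0.384 points. Among cells below the C1q and platelet limits the shares were 7.48% and 15.8% in control and 2.41% and 14.5% in cKO. Among members, the share with S100a8 at 1000 CPM or more was 13.6% and 5.77% in control and 14.3% and 7.84% in cKO (exact permutation p = 0.667), and that with S100a9 was 13.6% and 7.69% against 14.3% and 7.84% (exact permutation p = 0.667). These rest on 1 to 4 cells per group, and with 2 against 2 no difference could have reached a p below 0.333 in this test.

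Nupr1 itself was barely present in these cells. Control members had 1 UMI in replicate 1 and 37 in replicate 2, and cKO members had 0 and 1. In replicate 2 the level was 0.0307 times that of control, with a counting interval of 0.000757 to 0.182. In replicate 1 the counts were too few to compare. The gene was below the filter of the edgeR fit. Without that filter its log2 fold change was -4.34 (edgeR adjusted p = 0.166), with DESeq2 it was -4.15 (adjusted p = 1.00), and without control replicate 1 it passed at -5.03 (edgeR adjusted p = 0.00898). Over the other fits without 1 sum that gave a value, the edgeR adjusted p was 0.250 without cKO replicate 1 and 0.999 without cKO replicate 2. No source used here gives the deleted exons, so whether 3′ reads report the deletion is not known.

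UMIs of the members were summed per genotype and replicate and tested with edgeR's quasi-likelihood test over 9025 genes, of which 1 passed an adjusted p of 0.05, a background of 0.0111%, and 64 had an unadjusted p below 0.05. The 1 gene was Ear2, at 30.4 and 12.3 CPM in control and 0 and 0.474 CPM in cKO, with a log2 fold change of -5.52 (SE 0.82, edgeR adjusted p = 0.0389). The groups did not overlap, but all 46 and 59 control UMIs stood in 1 cell of each replicate and the 2 cKO UMIs in 1 cell, so the call rests on single cells and its fold on counts near 0. The control cell of replicate 1 also had 15211 CPM of Prg2, and that of replicate 2 had 43.1 CPM. The next genes by p missed the threshold. Hebp1, a heme-binding protein, was at 8.60 and 5.84 CPM in control and 28.1 and 40.5 CPM in cKO (log2 fold change 2.33, SE 0.42, edgeR adjusted p = 0.145). It was found in 9 of 22 and 20 of 52 control cells and in 7 of 7 and 37 of 51 cKO cells, so it was spread over cells, unlike Ear2. Stfa2l1 was at 1.32 and 2.50 against 15.6 and 57.6 CPM (edgeR adjusted p = 0.145), with 8 cells carrying all of its 267 UMIs. Lilrb4a, an inhibitory receptor, and Hcar2, a receptor for hydroxybutyrate, were at 1.98 to 2.71 CPM in control and 9.35 to 24.9 CPM in cKO (edgeR adjusted p = 0.480 and 0.523). Single cells weighed on both, with 15 of the 16 Lilrb4a UMIs of cKO replicate 1 and 44 of the 80 Hcar2 UMIs of cKO replicate 2 in 1 cell each.

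The replicate pool is shared by the genotypes, and with it as a block 8 genes passed, a background of 0.0886%: Ear2, Stfa2l1, Hebp1, Ccl4, Thbs1, Tnni3, Lilrb4a and Hcar2, of which Ear2 was lower and 7 were higher in cKO. Hebp1 then had a log2 fold change of 2.39 (edgeR adjusted p = 0.00342), and its adjusted p ran from 0.0001 to 0.513 over all alternatives. Of these 8, Ccl4 and Thbs1 belong to the gene lists. All 52 Thbs1 UMIs of cKO replicate 1 stood in 1 cell. Ccl4 had 1 and 0 UMIs in control and cKO of replicate 1 and 262 and 808 in replicate 2, where 1 cKO cell held 312. Leaving out 1 sum gave 37 calls without control replicate 1, 42 without control replicate 2, 18 without cKO replicate 1 and 42 without cKO replicate 2. Of the 26 gene lists, no member passed without the block: 0 of 179 list genes tested had an edgeR adjusted p below 0.05. An unadjusted edgeR p below 0.05 was found for 5 of the 179, beside 64 of all 9025 genes tested. The 5 were Lyz2, Ccl9, Itgam, Id2 and S100a6, all higher in cKO. The directions of the 64 were not counted, so nothing is read from this. Lyz2, lysozyme, was at 28.4 and 77.0 CPM in control and 265 and 184 CPM in cKO, but 169 of the 170 UMIs of cKO replicate 1 stood in 1 cell. DESeq2 called Lyz2 beside Ear2 and Stfa2l1.

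The marker genes of these cells gave the following levels by genotype. The 6 markers had a median log2 fold change of -0.46, against -0.0066 over all genes tested, and 0 passed with all 4 sums. With 1 sum left out, Ms4a3 passed without control replicate 2 (log2 fold change -1.68, edgeR adjusted p = 0.00625) and without cKO replicate 2 (-3.15, edgeR adjusted p = 1.05e-07), and S100a8 without control replicate 2 (-1.52, edgeR adjusted p = 0.00616). S100a9, which is not among the 6, passed without cKO replicate 2 (-2.69, edgeR adjusted p = 8.65e-06). All 4 of these calls came from fits that kept the 7 cells of cKO replicate 1. S100a8 was at 2185 and 589 CPM in control and 528 and 1017 CPM in cKO (log2 fold change -0.87, SE 0.89), and S100a9 was at 857 and 476 against 108 and 708 CPM (log2 fold change -0.70, SE 1.23). Mpo (log2 fold change -0.40, SE 0.31), Prtn3 (-0.52, SE 0.39), Plac8 (-0.40, SE 0.40) and Ms4a3 (-1.37, SE 0.98) were lowest in cKO replicate 1, and Fcgr3 had a log2 fold change of 0.03 (SE 0.67). With all 4 sums, each of these differences was less than 2 times its SE. That SE comes from the same edgeR test, so it is not separate evidence. A p that misses the threshold does not show equal levels.

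**Figure D5:**
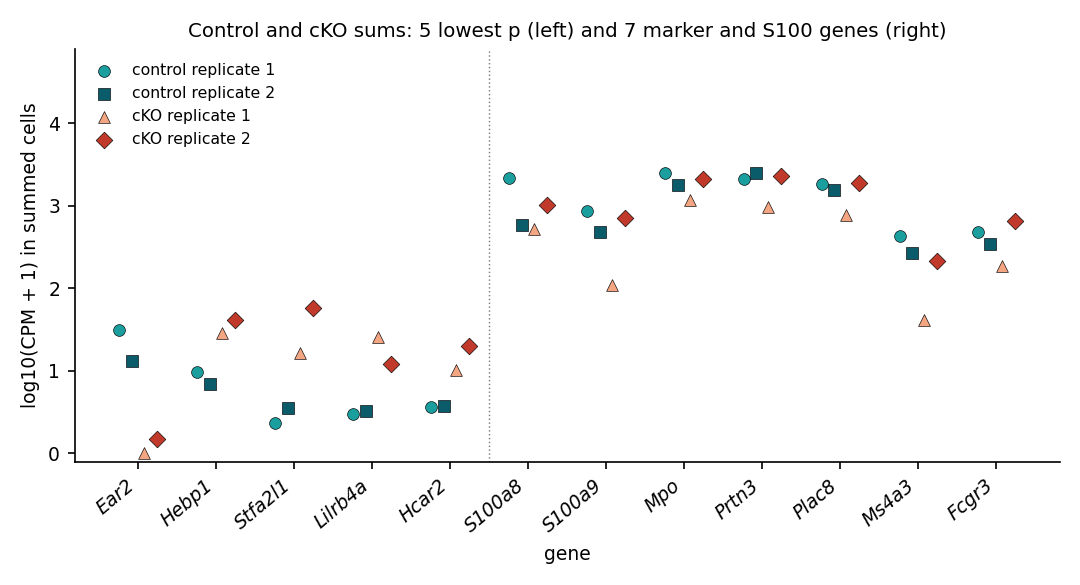
Level of 12 genes in the 4 summed groups, as log10(CPM + 1), with 1 point per genotype and replicate; the 5 genes of lowest p are left of the dotted line and 7 marker and S100 genes right of it. Ear2 lies at 30.4 and 12.3 CPM in control and at 0 and 0.474 CPM in cKO, while the genotypes overlap for the marker and S100 genes other than Ms4a3.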

How the data were processed

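CD31+CD44+ cells of 2 replicate pools were measured by 10x Genomics 3′ sequencing. The authors deposited unnormalized count tables of UMIs (24543 genes by cell) with hashtag labels, after quality control and selection of hashtag singlets; the submitters' processing notes name Cell Ranger 5.0.1 and mm10. The stated limits (1800 genes, 6000 UMIs, 5% mitochondrial reads) were not met by 101 deposited cells, which were kept. Control and cKO were assigned by the deposited hashtag of each cell.

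The members, lists and tests were chosen with earlier results of these data known, and the Fcgr3 level of 1000 CPM, the 3 sets of cells and the motif after values were seen. Counts were divided by the UMIs of the cell, or of the summed cells, and multiplied to CPM. Sums over genotype and replicate (n = 2 each) were tested with edgeR 4.0.16 in R 4.3.3 (filterByExpr, TMM, robust quasi-likelihood, Benjamini-Hochberg over all genes tested). The SE given for an edgeR fold change is the absolute log2 fold change divided by the square root of its F statistic. Labels do not say whether the pools are independent litters, so p-values measure only the spread between these sums. The replicate numbers pair the sums, since both genotypes share a pool; paired deviations from the group means correlated with r = 0.275 across 9025 genes, which are not independent. Shares were compared by exact permutation tests in Python 3.11.15. Doublets were called with Scrublet in Scanpy 1.11.5, which marked 6 cells and cannot be said to have worked; hashtag singlets had been selected before deposit. The edgeR step was tested on simulated data, where it recovered 65 of 95 changes of 4-fold (68.4%) and 13 of 96 of 2-fold (13.5%), with 8 false calls. The simulated sums were drawn independently, without a shared pool effect and without single cells that hold most UMIs. These rates therefore need not hold for the real sums. Alternatives were the replicate block, DESeq2 1.42.0, RLE factors, no filter, leaving out each sum, the stated limits, other Mpo and Fcgr3 minimums, other S100 levels, thinning to 6000 UMIs and leaving out Scrublet calls.

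Named genes were those of the 26 lists, the 20 with the largest ratio of members to others among genes at 50 CPM or more in members, the 10 with the highest and the 5 with the lowest correlation with S100a8, and for genotype those past the threshold plus the 5 of lowest p. Genes of the eosinophil and stefin groups, and genes given for the 3 sets of cells or for likeness to Mpo, were named after their values were seen. Coordinates are those of GENCODE M21 and RefSeq GRCm38.p6.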

Additional observations from a re-analysis of the deposited data

How the results depend on the processing

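The share of members was lower in cKO by 2.18 percentage points and kept its sign under 11 of 12 alternatives, and leaving out single sums moved it from -4.73 to 0.384 points, the last without cKO replicate 1. The difference in the share with S100a8 at 1000 CPM or more, 1.36 points, turned to -0.119 with Mpo at 150 CPM and ranged from -2.57 to 5.30 when single sums were left out (-2.57 without control replicate 2, -1.86 without cKO replicate 1). That for S100a9, 0.400 points, turned to -0.966 with Mpo at 150 CPM, to -0.543 with S100a9 at 300 CPM and to -5.78 at 3000 CPM, and ranged from -2.82 to 3.62 when single sums were left out (-2.57 without control replicate 2, -2.82 without cKO replicate 1). The exact permutation tests could not give a p below 0.333 under any setting. The replicate block leaves each difference of means unchanged by construction, so the signs it kept carry no information. The count of genes that differ between the genotypes was 1, and 8 with the replicate block, 3 with DESeq2, 8 without the filter on low counts, 3 with Mpo at 600 CPM, 2 with Fcgr3 at 100 CPM, and 18 to 42 when single sums were left out, where the lone sum is assumed to vary like the others. Ear2 was called in all 15 fits, with adjusted p from 2.66e-09 to 0.0491. The Fcgr3 log2 fold change turned to -0.19 with the replicate block, -0.18 without control replicate 2, -1.21 without cKO replicate 2, -0.0568 with Mpo at 150 CPM and -9.4e-04 at 600 CPM. Over the fits without 1 sum Fcgr3 ran from -1.21 to 0.65, Plac8 from -1.21 to 0.10 and S100a9 from -2.69 to 0.070 (both highest without cKO replicate 1), and S100a8 from -1.52 to 0.36 (highest without control replicate 1), while Ms4a3 ran from -3.15 to -0.69, Prtn3 from -1.31 to -0.026 and Mpo from -0.92 to -0.024. Of the 7 marker and S100 genes, Ms4a3 passed without control replicate 2 and without cKO replicate 2, S100a8 without control replicate 2 and S100a9 without cKO replicate 2. The causes were not tested. Depth and cell number limit cKO replicate 1, with 7 cells.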
